A study of Drosophila melanogaster with 4 samples.

Results

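The genes described here are 86 Drosophila genes that carry only a CG number in the probe annotation and whose deposited ratios were low in experiment 7 and high in experiment 8. They were taken from 3136 CG-numbered genes with a value on all 4 arrays, among 8222 such genes of any name. A gene was chosen when the mean over its spots was at or below -0.4 on the log2 scale in experiment 7 and at or above 0.3 in experiment 8. The values of experiments 7 and 8 therefore define the group and are given as a description, and only experiments 3 and 4 can add to it.

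The study asked whether laser wounding changes mRNA levels in the syncytial Drosophila embryo immediately after wounding, at 0 min. Laser wounded embryos were compared with unwounded embryos that were handled alike. All embryos were collected at 0 to 1 h and carried the actin reporter sGMCA, and wounded embryos received 8 wounds each. Total RNA of both conditions, 30 ug each, was labelled with Cy3 or Cy5 and hybridised together on each of 4 arrays of spotted cDNA clones (experiments 3, 4, 7 and 8). By the labels the dyes were swapped in experiment 4, where wounded RNA was labelled with Cy5, and it was labelled with Cy3 on the other arrays. These dye assignments rest on the labels alone, and ratios give no means to check them. Each RNA sample was a pool of whole embryos, so a change within a wound would be diluted by the rest of the embryo. The deposited value is 1 log2 ratio per spot and array, without intensities, so the labelled stage could not be checked against levels of marker genes, and faint spots cannot be told from bright ones. No label or method says which channel, dye or condition is on top of the ratio. Ratios are thus given as deposited, low and high refer to that sign, and no direction of change upon wounding is given.

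A CG number is the identifier that the fly genome annotation gives to a predicted gene, and many genes that no mutant or biochemical study has named keep it as their symbol. In the early embryo most mRNA was deposited by the mother. Zygotic transcription starts with a small set of genes during the syncytial cycles and becomes widespread at cellularization, while part of the maternal mRNA is degraded.

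Of the 86 genes, 78 were matched by gene identifier to a current RefSeq gene (Release 6 of the fly genome) and still carried the same CG number. The other 8 were found only among the synonyms of current genes. The CG-numbered models of 5 of them are now part of named genes, 2 belong to genes with another CG number, and CG9517 is listed for both CG45064 and CG45065. CG30111 is now part of grh, the gene of Grainyhead, a transcription factor that acts in the epidermal barrier and at epidermal wounds. CG5467 is part of scrib, which encodes the Scribble polarity protein of the septate junction region. CG14045 is part of PsGEF, which encodes a guanine nucleotide exchange factor. CG9322 is part of kmr, for which the table lists the human gene name PLEKHA4 as a synonym, and CG32394 is part of dikar. Among the 78, synonyms name CG14562 as HPS3, in mammals a subunit of a complex that builds lysosome-related organelles, CG4914 as the serine protease SP39 and CG14937 as FBXO17, an F-box protein name. The table gives only numbers or clone names for most of the others.

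In experiment 7 the 86 genes lay between -1.16 and -0.40, with a median of -0.60, and in experiment 8 between 0.31 and 1.19, with a median of 0.51. The same limits held for 2.86% of all 8222 genes and 2.74% of the CG-numbered genes, and the choice itself used these values. CG-numbered genes with the mirrored pattern, at or above 0.4 in experiment 7 and at or below -0.3 in experiment 8, were about as many, at 84. Values past the limits on the same side of both arrays were fewer, with 17 CG-numbered genes low on both and 14 high on both. By the labels, wounded RNA carried Cy3 on both arrays. Over all 8222 genes, the ratios of experiments 7 and 8 had a Pearson correlation of -0.33 (-0.29 over 11789 spots), a description across genes, which are not independent replicates. If the label of either array were wrong, low and high on that array would change places relative to the wounded sample, and this could not be checked.

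The difference of experiment 8 minus experiment 7 was largest for 6 genes. CG11381 had -0.995 in experiment 7 against 1.19 in experiment 8, while it had 0.02 in experiment 3 and -0.02 in experiment 4. CG4440 had -0.95 and 0.90 in experiments 7 and 8, with -0.37 and -0.83 in experiments 3 and 4. CG42749 had -0.68 and 1.105 in experiments 7 and 8, with -0.19 and -0.28 in experiments 3 and 4. These genes thus ranged from values near 0 to clearly low values on the arrays that did not choose them. CG15765 had -0.69 and 1.03 in experiments 7 and 8, CG9322 had -1.16 and 0.48, and CG30111 had -0.89 and 0.64. In experiments 3 and 4, CG15765 had -0.11 and -0.17, CG9322 -0.13 and 0.23, and CG30111 -0.50 and -0.27. Of the 6, CG4440 and CG30111 were the ones with ratios of -0.25 or less on both of these arrays.

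At the limits, the genes were continuous with those left out. Just inside the limit of experiment 7 were CG30460 at -0.405 and CG45263 at -0.412, and just outside it were CG15382 at -0.397 and CG30080 at -0.391. Just inside the limit of experiment 8 were CG9411 at 0.310 and CG13743 at 0.313, and just outside it were CG43693 at 0.298 and CG6006 at 0.295.

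**Figure D1:**
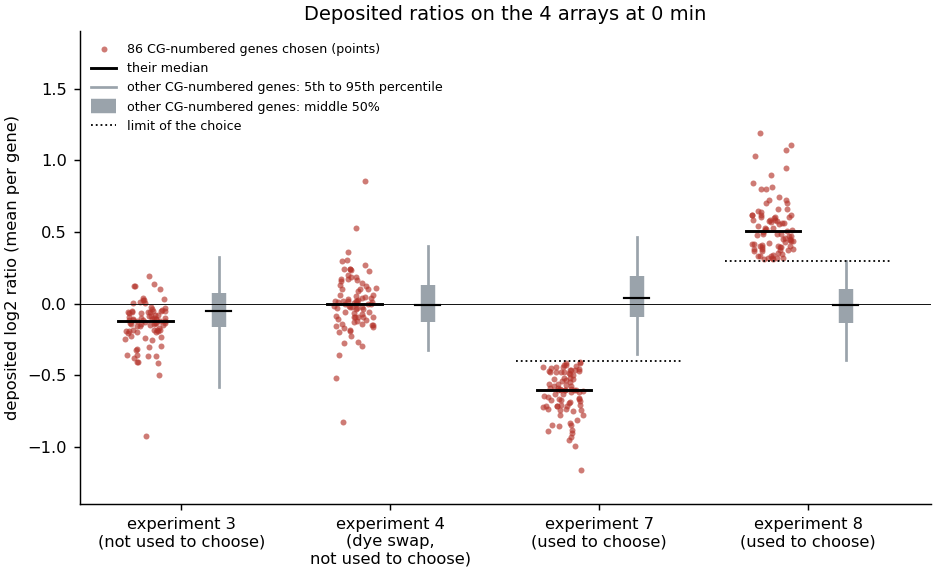
Deposited log2 ratio per gene (y axis) on each of the 4 arrays (x axis), with the 86 chosen genes as points with their median and the 3050 other CG-numbered genes as a box for the middle 50% and a line from the 5th to the 95th percentile. The chosen genes lie past the dotted limits in experiments 7 and 8 by construction, have a median of -0.12 in experiment 3 and are centred on 0 in experiment 4.

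The arrays that did not choose the genes gave a small lean in experiment 3 and none in experiment 4. In experiment 3, 74 of 86 genes (86%) had a ratio below 0, against 57.1% of all 8222 genes and 61.6% of the 3050 other CG-numbered genes. Their median was -0.12, against -0.05 in the other CG-numbered genes and -0.03 in all genes, and they lay between -0.92 and 0.19. In experiment 4, 43 of 86 genes (50%) were below 0, against 50.7% of all genes. Their median there was -0.00045, against -0.01 in the other CG-numbered genes and -0.0025 in all genes, and they lay between -0.83 and 0.86. The lean of experiment 3 is small beside the values that chose the genes, since 66 of 86 had a ratio under 0.2 in size (71.4% of all genes did), and in experiment 4 67 of 86 did (69% of all genes).

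Few of the chosen genes reached the limits of the choice on these arrays, and few of all genes did. On the low side the counts were near the shares of all genes. On the high side they were lower, without a test. In experiment 3, 5 of 86 genes were at or below -0.4, against 6.53% of all genes, and 0 were at or above 0.3, against 6.24%. In experiment 4, 2 of 86 were at or below -0.4, against 1.97% of all genes, and 4 were at or above 0.3, against 9.6%. A ratio under 0.2 in size on both arrays was found for 54 of the 86 (62.8%), against 49.4% of the other CG-numbered genes and 51.4% of all genes. In signs, 36 of the 86 were below 0 on both arrays (41.9%, against 31.8% of all genes), 38 were below 0 in experiment 3 and above 0 in experiment 4 (44.2%, against 25.3%), and 12 were above 0 in experiment 3 (14.0%, against 42.9%). Among the other CG-numbered genes these shares were, in the same order, 35.9%, 25.7% and 38.4%.

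The comparison sets, chosen with the same 2 arrays, behaved alike or in mirror image in experiment 3. The 149 genes with a name that met the same limits had a median of -0.14 there, with 85.2% below 0. The 84 CG-numbered genes of the mirrored pattern had a median of 0.25, with 7.14% below 0. In experiment 4, the medians of these sets were 0.04 and -0.01. Over all genes, experiment 3 correlated with experiment 7 at a Pearson r of 0.29 and with experiment 8 at -0.10, and experiment 4 correlated with them at -0.13 and -0.12. Experiments 3, 7 and 8 have the same dye orientation by their labels, which could not be checked, and experiment 3 correlated positively with experiment 7 and weakly negatively with experiment 8. The correlations are across genes and come without a test.

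**Figure D2:**
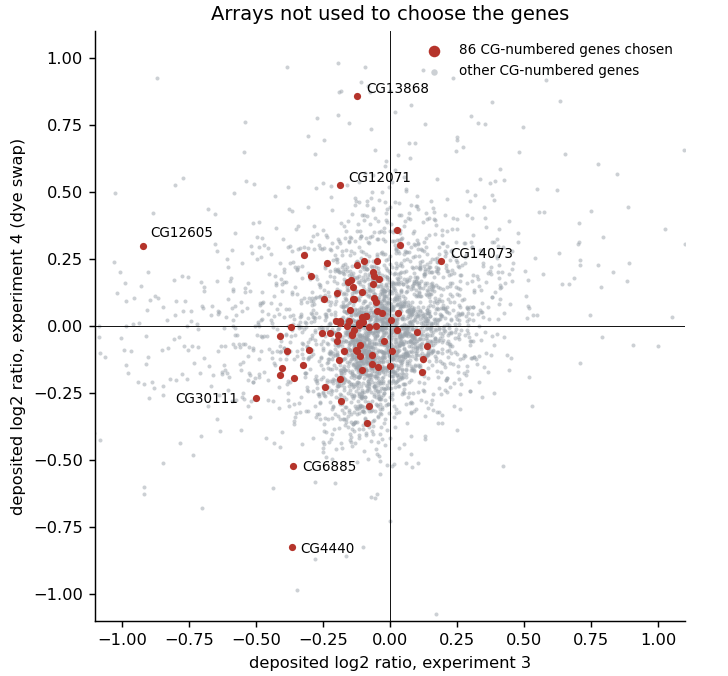
Deposited log2 ratio in experiment 3 (x axis) and in experiment 4, the dye swap (y axis), with each of the 86 chosen genes as a large point and each other CG-numbered gene as a small point (57 of these lie outside the axes). Most chosen genes lie left of 0 and are spread evenly above and below 0, with CG4440, CG6885 and CG30111 low on both arrays and CG12605 low in experiment 3 only.

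For a test, experiments 3 and 4 were fitted with limma over all 8244 genes with a value on both, with experiment 4 turned against experiment 3 as for a ratio of the dyes. None of the 86 genes passed an adjusted p of 0.05 with a mean of at least 1.5-fold, nor did any of all genes tested (0%), and the smallest adjusted p was 0.9996. At an unadjusted p under 0.05 there was 1 of 86 genes, against 2.13% of all genes. With experiment 4 not turned, as for a ratio already set to wounded over unwounded, 0 of 86 and 0 of all genes passed, the smallest adjusted p was 0.771, and 3 of 86 had an unadjusted p under 0.05, against 5.82% of all genes. The shares among the chosen genes, 1.16% and 3.49%, rest on 1 and 3 genes and do not set them apart from all genes. With 2 arrays the precision is low, and a missed threshold does not show that levels were equal.

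Low ratios on both arrays were rare. CG4440 had -0.37 in experiment 3 and -0.83 in experiment 4, and CG6885 had -0.36 and -0.52. CG30111, now part of grh, had -0.50 and -0.27, and CG8960 had -0.24 and -0.23. These were the 4 of 86 genes (4.65%) at or below -0.2 on both arrays, against 2.96% of all genes. The share was close to the 4.3% of the other CG-numbered genes. At or above 0.2 on both were 0, against 4.16% of all genes and 4.07% of the other CG-numbered genes. For CG30111, another spot annotated as grh, clone LP11035, had -0.55 and 0.69 in experiments 3 and 4. The spots of grh thus disagreed in sign in experiment 4. With experiment 4 not turned, the mean of CG6885 was 0.44 in size (SE 0.106, n = 2 arrays), that of CG4440 0.60 (SE 0.149) and that of CG30111 0.38 (SE 0.113), and limma gave an adjusted p of 0.771 for each. Turned, their means were 0.08, 0.23 and 0.12 in size, with limma adjusted p of 0.9996 for each. CG14014, with -0.41 and -0.18 in experiments 3 and 4, and CG13894, with -0.36 and -0.19, came next by limma p with experiment 4 not turned.

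Opposite ratios on both arrays were found for other genes. CG12605 had the lowest value of the 86 in experiment 3, -0.92, and 0.30 in experiment 4. With experiment 4 turned its mean was 0.61 in size (SE 0.194, n = 2 arrays, limma adjusted p = 0.9996), and not turned it was 0.31 in size (SE 0.313, limma adjusted p = 0.824). It was the 1 gene with an unadjusted p under 0.05 in the turned reading. CG16743 had -0.32 and 0.27 in experiments 3 and 4, CG12071 had -0.19 and 0.53, CG13868 had -0.12 and 0.86, and CG33253 had -0.24 and 0.24. The turned means of these 4 lay between 0.24 and 0.49 in size, and none passed. The values of CG16743 and CG33253 were of similar size on both arrays, while those of CG12071 and CG13868 were larger in experiment 4.

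At the ends of the range on single arrays, CG5888 and CG8654 had -0.41 in experiment 3, with -0.04 and -0.16 in experiment 4. The highest values in experiment 3 were those of CG14073 (0.19), CG9517 (0.14), CG10384 (0.12), CG17930 (0.12) and CG31952 (0.10), all of them small. In experiment 4 they were 0.24, -0.08, -0.12, -0.17 and -0.02, so CG14073 was the one of these above 0 on both arrays. CG12885 and CG11816 were low in experiment 4, at -0.36 and -0.30, with -0.09 and -0.08 in experiment 3. CG14562, named HPS3 in a synonym, had 0.36 in experiment 4 and 0.02 in experiment 3, and CG30460 had 0.30 and 0.04. CG4914, named SP39, had -0.06 and 0.19 in experiments 3 and 4, and CG14937, named FBXO17, had -0.19 and -0.13.

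Spots of the same gene were compared within arrays. Of the 86 genes, 73 rest on 1 spot. For 12 genes at least 2 spots had values, and in 6 of them each spot was past both limits. The means of these same spots chose the genes, so that count is a description and no measure of how well a ratio repeats. The spots of CG32108 ran from -0.52 to -0.42 in experiment 7 and from 0.34 to 0.46 in experiment 8, and those of CG15478 differed by 0.06 and 0.10 on these arrays. CG13594 was the 1 gene whose spots had opposite signs on an array of the choice. Clone RE16208 had -0.12 in experiment 8 and its second print 0.75, although they differed by 0.01 in experiment 7. A wider measure comes from all clones with a second print and all genes with 2 clones, which include some of the chosen genes. Over the clones printed again on the array, the difference between prints had an SD of 0.547, 0.404, 0.427 and 0.410 on the arrays of experiments 3, 4, 7 and 8, with a median size between 0.157 and 0.292. For 997 genes with 2 clones, the SD was 0.368, 0.257, 0.316 and 0.318 on these arrays, and the median size was between 0.109 and 0.125. The SDs between prints are as large as the limits of -0.4 and 0.3, while most pairs differed by less. Second prints carry the suffix ReAmp in their spot names. Their SDs were larger than those between 2 clones of a gene, so they may not stand for spots in general.

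**Figure D3:**
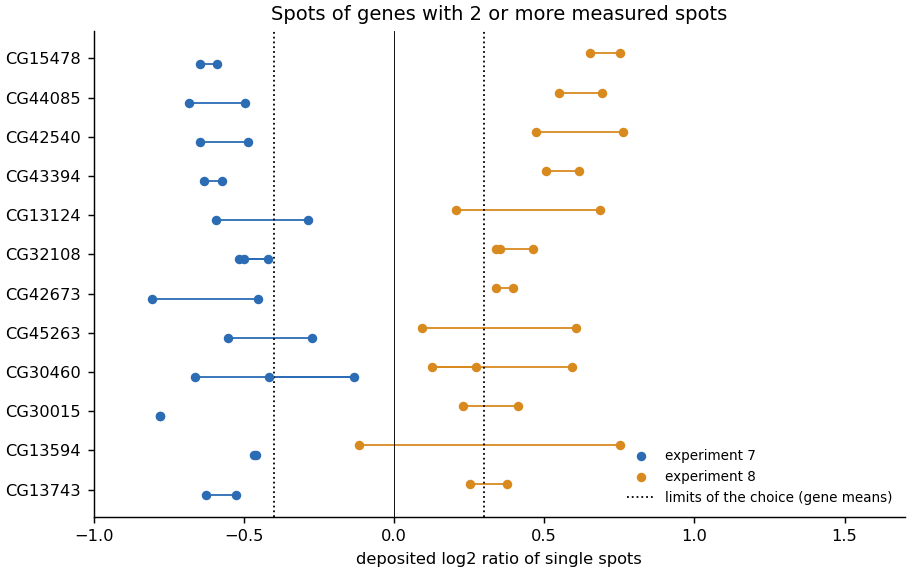
Deposited log2 ratio of single spots (x axis) in experiments 7 and 8 for the 12 chosen genes with 2 or more measured spots (y axis), with a line joining the spots of a gene and dotted lines at the limits set on gene means. For 6 genes all spots lie past both limits, and the spots of CG13594 in experiment 8 lie on either side of 0.

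Genes that were renamed offer further spots that took no part in the choice, although they lie on the same arrays. Clone LP11035, annotated as grh, had -0.55, 0.69, -0.51 and 0.05 in experiments 3, 4, 7 and 8, against -0.50, -0.27, -0.89 and 0.64 for clone LD38807, the spot of CG30111. Both spots were low in experiments 3 and 7, and they disagreed in sign in experiment 4 and in size in experiment 8. For scrib, clones SD05339 and LD43989 had -0.28 and -0.52 in experiment 7 and 0.35 and 0.08 in experiment 8, against -0.60 and 0.84 for CG5467. Clone LD29048 of dikar had -0.30 and 0.14, against -0.44 and 0.38 for CG32394. Clone GH20240 of PsGEF had 0.15 and -0.34, its second print -0.41 and 0.22, and the spot of CG14045 -0.62 and 0.80. Of these 6 other spots, 5 had the signs of the chosen gene in experiments 7 and 8, each nearer to 0, and 1 had the opposite signs. That 1 was clone GH20240, and its own second print was among the 5. How common these signs are among all spots was not counted, and experiments 7 and 8 correlated at -0.29 over all spots. The count is therefore a description and no measure of how well the pattern repeats.

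The cDNA libraries behind the clones had other shares among the chosen genes than among other CG-numbered genes, and these differences come without a test. The first letters of a clone name give its cDNA library: LD and RE were made from embryos, GM from ovaries, GH, RH and HL from adult heads, LP from larvae and pupae, SD from cultured cells and AT from adult testes. None of 101 spots came from the ovary library, against 4.27% of 3445 spots of the other CG-numbered genes and 4.7% of the spots of all genes. A count of 0 in 101 allows a share of up to 2.97% if spots are taken as independent draws. Some genes have several spots, and the limit is no test of a difference. Clones of the LD embryo library made up 8.91%, against 18.7% and 24.6%. The shares were 31.7% for RE, against 21.6% and 21.2%, and 28.7% for GH, against 19.7% and 18.6%. For these libraries, similar shares were found in the CG-numbered genes of the mirrored pattern, chosen with the same arrays. They were 6.59% for LD, 34.1% for RE and 25.3% for GH. Other libraries differed between the mirrored and the chosen genes, such as RH (15.4% against 5.94%), AT (4.4% against 10.9%) and LP (2.2% against 5.94%). The named genes within the same limits had a similar RE share of 32%. Their LD and GH shares, 19.7% and 19.1%, were close to those of the other CG-numbered genes. For the ovary library the mirrored set had 7.69% and these named genes 2.81%. Embryo libraries together gave 40.6% of the spots, against 40.3% for the other CG-numbered genes. AT clones made up 10.9%, against 14.9%. These shares are counts of clones chosen by those who made the array. They say where a cDNA was cloned from and not where a gene is active, and they were looked at after the values had been seen.

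**Figure D4:**
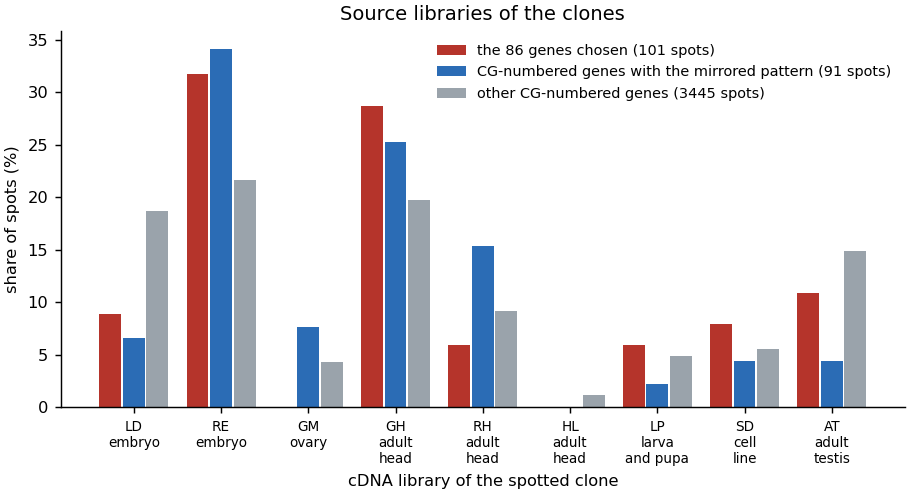
Share of spots in percent (y axis) from each cDNA library (x axis), for the 101 spots of the 86 chosen genes, the 91 spots of CG-numbered genes with the mirrored pattern and the 3445 spots of other CG-numbered genes, which include the mirrored ones. The chosen and the mirrored genes have similar LD (8.91% and 6.59%) and RE shares (31.7% and 34.1%), and other CG-numbered genes have 18.7% and 21.6%.

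The chosen genes were spread over the genome. Among the 78 matched by identifier, 17 lay on chromosome arm 2L, 16 on 2R, 15 each on 3L, 3R and X, and 0 on chromosome 4, where 9 of 3012 CG-numbered genes lay. The shares were 21.8% on 2L, 20.5% on 2R and 19.2% each on 3L, 3R and X. Of the 3012 CG-numbered genes, 18.5% lay on 2L, 19.2% on 2R, 19.3% on 3L, 24.6% on 3R and 18% on X. Of 88 directly neighbouring protein-coding genes with a value on all arrays, 2 also met the limits (2.27%), against 2.51% of the neighbours of all genes. They were Cad74A, a cadherin gene next to CG13728, and Zasp52, a gene of the Z-disc next to CG30089. Cad74A had -0.68 and 0.34 in experiments 7 and 8, and Zasp52 had -0.49 and 0.46. No 2 of the 86 were direct neighbours among the genes matched.

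Genes of known timing are given as a description, since their count uses the experiments that chose the genes and the list was drawn up with earlier results of these arrays known. Of 33 measured genes of a list of early zygotic genes, 16 met the limits of the choice (48.5%), against 2.86% of all genes, and of 23 measured maternal genes 0 did. A count of 0 in 23 does not set the maternal genes apart from all genes. Among the 16 were nullo, which shapes the cellularization front, halo, which acts in lipid droplet transport, the gap genes Kr, kni and gt, the pair-rule genes odd and hry, and twi, a regulator of mesoderm. Genes of the same classes were also among those that did not meet the limits. The gap gene hb had 0.01 and -0.12 in experiments 7 and 8. The pair-rule genes prd, slp2 and opa had 0.19, 0.13 and -0.08 in experiment 8. In experiments 7 and 8, nullo had -0.44 and 0.52, Kr had -0.74 and 0.49, and twi had -0.59 and 0.70. The whole list had medians of -0.56 and 0.32 in experiments 7 and 8, and of -0.16 and -0.06 in experiments 3 and 4. The list is no evidence of the timing of any CG-numbered gene.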

How the data were processed

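The log2 ratios deposited by the authors came from GenePix 4000B scans quantified in GenePix Pro 6.0, after loess normalization of each array in limma. The methods also remove dim or flagged spots, and no source says if these had been removed from the values used here. Of 12144 spots, 160 controls were left out. Of 11984 others, 9917 had 1 gene in the platform annotation, 625 had several and 1442 had none listed. Spots of 1 gene were averaged per array. Array medians over all spots lay between -0.0299 and 0.0054. The 4 arrays are called independent, but no separate cultures are named, and p-values then cover the spread between these samples alone, which may be technical. The number of arrays limits the precision.

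The members were found by their limits, and they and the lists were chosen with earlier results of these data known. Experiments 3 and 4 were tested with the moderated two-sided test of limma 3.58.1 under R 4.3.3, adjusted over all genes by Benjamini-Hochberg, checked on simulated data. Genes named are those with extreme values or the smallest p, those near a limit, those with a RefSeq name or synonym, and those whose spots disagree. CG8960, CG13728 and CG30089 and the genes next to them, CG32108, CG15478, CG4914, CG14937 and the zygotic examples were named after their values were seen. No promoter or protein sequence was used here. Tables were handled in Python 3.11.15.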

Additional observations from a re-analysis of the deposited data

Results flagged for a closer look

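The 4 deposited ratios of each of the 86 genes, and the medians over them, were examined with Dixon's criterion, which asks if the highest or lowest of the values lies apart from the rest. Of 87 sets of values, 1 stood out. Chance flags about 5% of groups, but that share does not apply here, because the sets hold the experiments that chose the genes. CG6885 had a ratio of 0.60 in experiment 8, against -0.36, -0.52 and -0.52 in experiments 3, 4 and 7. The choice required a high ratio in experiment 8, so this value says nothing beyond the choice itself. With experiment 4 turned, 0 of the 87 stood out.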

How the results depend on the processing

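The number of genes chosen was 86, and 50 with limits of -0.5 and 0.4. It lay between 81 and 124 with limits of -0.3 and 0.2, medians over spots, updated symbols or array medians subtracted. The limma count at an unadjusted p under 0.05 on experiments 3 and 4 was 1, and it was 3 with experiment 4 not turned and 0 with the stricter limits. It stayed at 1 in the 4 other settings, and the count past the adjusted threshold was 0 in each setting. The median in experiment 3 ran from -0.142 to -0.0939 and that in experiment 4 from -0.0285 to 0.0258, including 12 genes with 2 or more spots, which is a choice made once the data had been seen. The median of the turned mean was 0.0713, -0.0534 when not turned, and between -0.00045 and 0.124 without each array. Without experiment 3 or 4 no test is possible, since 1 array is left. The motif alternative was not run because no promoter sequence was used. No paired analysis was possible because wounded and unwounded RNA share each array, the ratio is already a within-array pairing, and no further group shares replicate numbers with these arrays. For 32 named genes, 96 of 96 alternative values stayed on the same side of the threshold (limma adjusted p from 0.771 to 0.99996). No gene came near the threshold in the main fits, so this count says little about how stable the values are.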
